A study of Mus musculus with 30 samples.

Results

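The vascular endothelial growth factor (VEGF) and platelet-derived growth factor (PDGF) genes Vegfa, Vegfc, Flt1, Kdr, Pdgfa, Pdgfb, Pdgfra and Pdgfrb were followed across stress treatments of mouse embryonic fibroblasts (MEFs). They were chosen by name, as the probes whose gene name on the array was one of the 8, which gave 16 of 41174 probes and 8 of 21689 named genes. Each of 30 arrays hybridised in 2 colours compared Cy5-labelled RNA of 1 culture with Cy3-labelled RNA pooled from 2 untreated wild type (wt) cultures, and each of 15 groups had 2 arrays. The replicate arrays came from independent experiments. Immortalised wt MEFs received anisomycin, a translation inhibitor, at 25 ng/ml for 45 min, the cytokine TNFα at 100 ng/ml for 45 min, or 100 mM NaCl for 45 min, 2 h or 8 h. The same 5 treatments were given to wt MEFs with SB203580, an inhibitor of p38α and p38β kinase activity, and 1 wt group had the inhibitor alone. The treatment protocol gave SB203580 as 10 µM from 30 min before the stress, whereas the sample titles gave 10 mM for 2 h. Immortalised p38α-/- MEFs, which lack the kinase encoded by Mapk14, were left untreated or received anisomycin for 45 min, TNFα for 45 min or NaCl for 2 h, as the labels give it (a supplementary sheet of the study gives 45 min for that group). No untreated wt array stands beside the pool, p38α-/- cells had no inhibitor group, and genotype cannot be told apart from any other difference between the wt and p38α-/- lines. All values below are log2 ratios of sample over pool, where 0 is a signal equal to the pool of untreated wt MEFs. The sample was always in Cy5, so a fixed dye offset of a probe cannot be told apart from a difference from the pool. Rises and falls are against the pool unless another group is named.

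VEGF ligands act on receptor tyrosine kinases of endothelial cells and drive the growth of blood and lymphatic vessels. VEGF-A signals mainly through the receptor encoded by Kdr and also binds, with high affinity, the receptor encoded by Flt1, whose soluble form traps the ligand. PDGF chains form dimers that act on receptors of fibroblasts, smooth muscle cells and pericytes, where they stimulate proliferation and migration. Fibroblasts are a source of VEGF-A and a classical target of PDGF.

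Among the members Kdr showed the widest gap between the cell lines. It was lower than the pool on 8 of 8 p38α-/- arrays, where the median was -1.51, against 0.13 over 22 wt arrays. By their brightest probes Pdgfb, Vegfc and Flt1 were higher than the pool in wt MEFs after 8 h of NaCl. Counting each gene by its brightest probe, 6 of 32 tests of a gene in a wt stress group passed an adjusted p of 0.05, all 6 higher, against 15.8% of such tests over all genes. In the SB203580 groups 4 of 37 passed, all higher, against 21.2% over all genes, and in p38α-/- MEFs 6 of 26 passed, 2 higher and 4 lower, against 15.8%. Counting every probe, 13 of 65 tests passed in the wt stress groups, 13 of 80 with SB203580 and 9 of 56 in p38α-/- MEFs, against 14.3%, 19.5% and 14.5% of tests over all probes. These shares were near those of the array as a whole, or below them with SB203580, and the members are described by their own values.

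**Figure D1:**
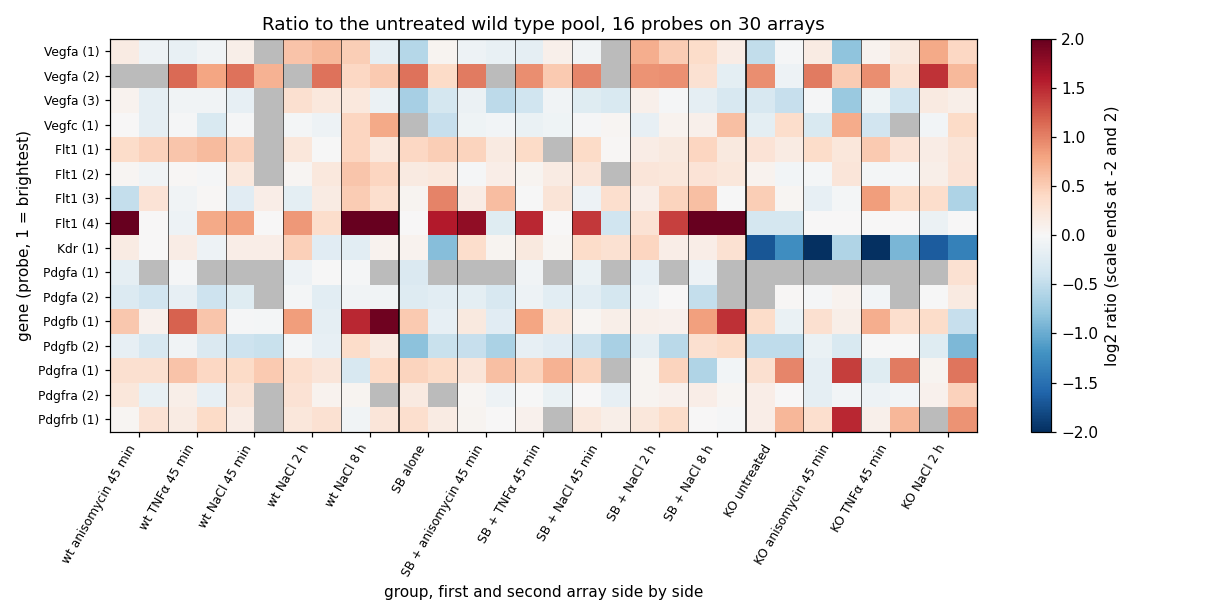
Log2 ratio of each of the 16 member probes (vertical axis) on each of the 30 arrays (horizontal axis, 2 arrays per group), on a colour scale from -2 to 2 with red above and blue below the pool and grey for spots marked as outliers. The Kdr row is blue on all 8 p38α-/- arrays and the brighter Pdgfb row is red on the 8 h NaCl arrays.

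The arrays differed in quality. The share of spots marked as outliers by the scanner software ranged from 6.75% to 44.7% per array, and marked spots were left out, so some groups below have 1 usable array. Mapk14 itself was -2.24 to -0.94 on the 6 p38α-/- arrays where it was measured and 0.05 to 1.31 on 16 wt arrays, so Mapk14 matched the labels of the lines. Of 7 fibroblast marker genes 7 were well above background on all arrays, but so were 5 of 7 endothelial and 5 of 5 macrophage markers, and this detection flag therefore did not separate cell types. Fewer cells of a type and less RNA per cell cannot be told apart in such bulk RNA. Each array had its replicate scanned on another day, and all p38α-/- first arrays were scanned with the wt second arrays.

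Vegfa, the main angiogenic ligand of the VEGF family, was read by 3 probes that differed in level and direction. On the brightest, A_51_P482552, NaCl for 2 h gave 0.57 and 0.64 in wt MEFs. The same treatment gave 0.72 and 0.51 with SB203580, and 0.76 and 0.42 in p38α-/- MEFs. All 6 of these arrays were above the pool. The other groups ranged from -0.80 to 0.50, and of these the first 8 h NaCl array at 0.50 lay inside the range of the 2 h arrays. Vegfa rose in the SB203580 group by 0.62 (SE 0.20, 1.53-fold, 95% CI 0.19 to 1.05, limma adjusted p = 0.0414). The wt difference of 0.60 and the p38α-/- difference of 0.59 had nearly the same size but missed the threshold (limma adjusted p = 0.0621 and 0.0502, the second 0.0475 with the replicate number as a block). Set against SB203580 alone, the 2 h NaCl value with the inhibitor was 0.87 higher (SE 0.29, limma adjusted p = 0.119), and against untreated p38α-/- MEFs that of p38α-/- cells was 0.85 higher (SE 0.29, limma adjusted p = 0.201). The call in the SB203580 group was lost in 8 of the 30 fits that left out 1 array.

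The other Vegfa probes followed this pattern in part. A_52_P638895 was above 0 on 16 of 17 measured wt arrays and 7 of 8 p38α-/- arrays, including those with SB203580 alone (1.08 and 0.39), and it passed the test in 5 groups, with differences from 0.74 to 1.05. Leaving out the first p38α-/- NaCl array ended the largest of these calls (0.65, limma adjusted p = 0.265), and the one with SB203580 alone was lost in 13 of 30 such fits, reaching 0.39 without its first array. The other 3 calls, with TNFα, NaCl for 45 min and NaCl for 2 h with SB203580, were each lost without either of their own arrays. The second array read lower than the first in 4 of 4 p38α-/- pairs, with differences from -1.03 to -0.54. A_52_P249424 had the highest group mean of each arm at 2 h of NaCl, with 0.32 and 0.21 in wt MEFs, 0.10 and -0.02 with SB203580 and 0.18 and 0.12 in p38α-/- MEFs, but was not called there. It fell with SB203580 alone, with -0.66 and -0.35 and a mean difference of -0.51 (SE 0.15, limma adjusted p = 0.0168), a call that was lost without the first array (-0.35, limma adjusted p = 0.419). With SB203580 it read below its partner stressed without the inhibitor in 9 of 9 pairs of arrays, but none of the differences passed the test. No direction is given for Vegfa in the 45 min groups or at 8 h with SB203580, where the probes disagreed in sign or lacked usable arrays. At 8 h of NaCl in wt MEFs the 3 probes had means of 0.16, 0.47 and 0.04, all above 0 and none called.

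**Figure D2:**
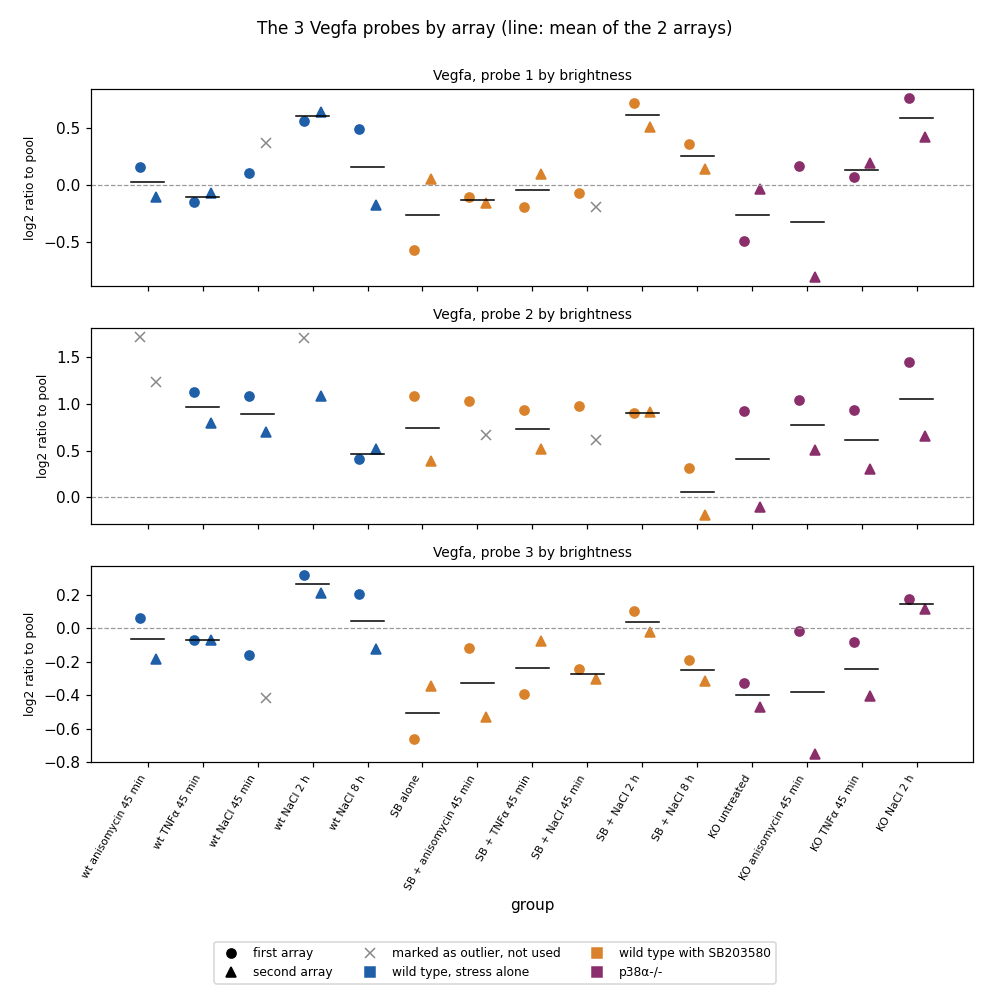
Log2 ratio to the pool (vertical axis) of the 3 Vegfa probes, from the brightest in the top panel to the dimmest, in each of the 15 groups (horizontal axis), with a circle for the first array, a triangle for the second, a cross for a spot marked as an outlier and a line at the group mean. A_51_P482552 at the top is above 0 on all 6 arrays of the 2 h NaCl groups, and A_52_P638895 in the middle is above 0 on nearly all arrays.

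Promoter sequence is shown for Kdr, Vegfa, Flt1 and Vegfc, chosen among the members that had an entry. It is the 250 bases before the outermost RefSeq start of the gene on mouse GRCm38.p6, 5' to 3' on the gene's strand. A promoter row was found for 6 of the 8 members, and Pdgfb and Pdgfrb had none. Capitals mark matches on either strand to ACGTG (hypoxia response element core), GGGCGG (GC box of Sp factors), TGACTCA (AP-1 site), TGACGTCA (cAMP response element) or TGGAAA (start of a tonicity element).
Kdr, chr5:75978456-75978705, minus strand: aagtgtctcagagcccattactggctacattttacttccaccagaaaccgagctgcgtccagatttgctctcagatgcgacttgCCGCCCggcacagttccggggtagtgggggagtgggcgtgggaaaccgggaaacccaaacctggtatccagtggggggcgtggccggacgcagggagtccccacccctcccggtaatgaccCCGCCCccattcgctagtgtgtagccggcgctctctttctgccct
Vegfa, chr17:46032378-46032627, minus strand: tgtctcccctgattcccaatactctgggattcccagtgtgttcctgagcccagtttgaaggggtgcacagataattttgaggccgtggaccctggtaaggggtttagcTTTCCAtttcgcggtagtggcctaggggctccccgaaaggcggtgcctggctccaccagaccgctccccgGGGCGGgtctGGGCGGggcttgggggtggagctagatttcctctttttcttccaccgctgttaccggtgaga
Flt1, chr5:147726012-147726261, minus strand: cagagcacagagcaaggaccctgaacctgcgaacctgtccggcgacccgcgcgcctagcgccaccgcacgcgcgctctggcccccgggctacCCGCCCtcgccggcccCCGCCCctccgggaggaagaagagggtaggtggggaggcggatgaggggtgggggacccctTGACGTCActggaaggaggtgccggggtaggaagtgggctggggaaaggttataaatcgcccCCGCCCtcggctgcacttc
Vegfc, chr8:54077282-54077531, plus strand: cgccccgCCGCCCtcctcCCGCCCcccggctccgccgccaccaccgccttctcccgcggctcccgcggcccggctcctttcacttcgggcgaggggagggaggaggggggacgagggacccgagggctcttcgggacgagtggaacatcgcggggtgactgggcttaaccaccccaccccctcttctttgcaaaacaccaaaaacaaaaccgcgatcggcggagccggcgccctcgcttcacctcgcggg
These windows are rich in G and C, at 61.6% for Kdr, 59.2% for Vegfa, 70.4% for Flt1 and 71.6% for Vegfc, against a median of 52.4% over 32851 windows of the same length. A GC box stands in 4 of 4, as in 32.7% of all windows. Flt1 holds 1 TGACGTCA, a motif in 1.55% of all windows, and Vegfa 1 TGGAAA, a motif in 18.6%. None of the 4 holds ACGTG, present in 16.6% of windows, or TGACTCA, present in 4.46%, within these bases.

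Vegfc, a ligand of the lymphatic receptor Flt4, was read by 1 probe. At 8 h of NaCl it was 0.43 and 0.76 in wt MEFs. With SB203580 it was 0.10 and 0.60, overlapping the wt arrays. The other wt stress groups, the shorter NaCl times among them, lay between -0.30 and 0.00, below both 8 h arrays. Vegfc rose at 8 h by 0.60 (SE 0.20, 1.51-fold, 95% CI 0.17 to 1.02, limma adjusted p = 0.0448), but this call was lost in 16 of 30 fits that left out 1 array. The step from 2 h to 8 h was 0.67 and missed the threshold (limma adjusted p = 0.198), passing it with the replicate number as a block (0.0315). In p38α-/- MEFs the second array was above the first in 3 of 3 measured pairs, by 0.43 to 1.05, which is as large as the change at 8 h.

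Flt1, the VEGF receptor that also binds placental growth factor, had 4 probes, which the array annotation ties to 3 transcript records. The brightest, A_52_P405145, was above 0 on 19 of 20 measured wt arrays and on 8 of 8 p38α-/- arrays. Its highest values came with TNFα, 0.56 and 0.63, where it rose by 0.59 (1.51-fold, limma adjusted p = 0.00192). Anisomycin gave 0.37 and 0.47, and SB203580 alone 0.42 and 0.49, so that stressed and unstressed groups overlapped. The anisomycin difference was 0.42 (SE 0.10, limma adjusted p = 0.0148) and that of SB203580 alone 0.45 (limma adjusted p = 0.0049). Leaving out the second TNFα array ended the TNFα call (0.56, limma adjusted p = 0.0719), leaving out the first SB203580 array ended the SB203580 call (0.49, 0.105), and the anisomycin call was lost without either of its arrays (0.155 and 0.139). In p38α-/- MEFs this probe was also called with TNFα (0.39, limma adjusted p = 0.0279), a call lost without either of that group's arrays. With the mean of its 4 probes Flt1 in wt MEFs was 0.22 with TNFα (limma adjusted p = 0.407) and 0.35 with anisomycin (0.164). In these groups A_51_P398723 was -0.003 and -0.02, and A_52_P307922 -0.02 and -0.10, none called. The dimmest probe was 0.33 and 1.08, on arrays where its Cy5 signal was not well above background.

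At 8 h of NaCl 3 of the 4 Flt1 probes rose in wt MEFs, and A_52_P307922, at 0.50 and 0.33, was not called. A_51_P398723 was 0.56 and 0.44, above all its other measured wt arrays, and differed from the pool by 0.50 (SE 0.08, limma adjusted p = 0.000393). That call held whichever array was left out, with adjusted p at most 0.024. The brightest probe was 0.43 and 0.20 there (difference 0.32, limma adjusted p = 0.04), a call lost in 4 fits that left out 1 array. With SB203580 A_51_P398723 was 0.28 and 0.22, below both arrays without the inhibitor, at a mean of 0.25 (limma adjusted p = 0.0393, lost in 4 fits that left out 1 array), but the 2 groups were not called different.

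A_52_P520859, the dimmest Flt1 probe, gave the highest ratios of any member and the least certain ones. It read 3.78 and 2.79 at 8 h of NaCl and 3.16 and 2.90 with SB203580 added, above its 26 other arrays. It was well above background in Cy5 on 6 of 30 arrays and in Cy3 on 9 of 30. As fitted, the probe rose by 3.28 (SE 0.54, limma adjusted p = 0.000283) at 8 h and by 3.03 (limma adjusted p = 0.000693) with the inhibitor. Since the pool was not well above background on either array of the SB203580 group, its level there is a bound, at least 6.02-fold higher. With normexp background correction the 8 h value was 0.99 and that with the inhibitor 0.59, and in the series' normalized ratios 2.43 and 1.15, so the size depended on the treatment of dim signal while the direction did not.

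Kdr, the main signalling receptor of VEGF-A, was low in p38α-/- MEFs whatever the treatment. The 2 untreated p38α-/- arrays read -1.71 and -1.24. With anisomycin they read -2.01 and -0.60, with TNFα -2.52 and -0.92, and with NaCl for 2 h -1.67 and -1.35. The 22 wt arrays ranged from -0.86 to 0.48 with a median of 0.13. The array at -0.86, the second with SB203580 alone, stood apart from the other wt arrays, of which the lowest was -0.23. It is the only one of the 22 wt arrays that overlapped the p38α-/- arrays, reading below the second p38α-/- anisomycin array at -0.60.

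Each p38α-/- group was lower than the pool, by -1.47 untreated (SE 0.31, 2.78-fold, 95% CI -2.13 to -0.82, limma adjusted p = 0.00411), -1.31 with anisomycin (0.0099), -1.72 with TNFα (0.00213) and -1.51 with NaCl (0.00253). Each of these calls was lost when the first array of that group was left out, which leaves 1 array in the group, giving -1.24, -0.60, -0.92 and -1.35. The second array was above the first in 4 of 4 p38α-/- pairs, by 0.31 to 1.61. Against wt MEFs given the same stress Kdr was lower by -1.39 with anisomycin, -1.74 with TNFα and -1.64 with NaCl for 2 h, which missed the threshold singly (limma adjusted p = 0.166, 0.133 and 0.113) and passed it once replicate number was blocked (0.0128, 0.00616 and 0.00674). Over all members, 0 of 19 such tests against the same stress passed in the limma fit, 4 had an unadjusted p under 0.05, and 0.806% of tests over all genes passed. Averaged over the 3 stresses the difference was -1.59 (SE 0.25, 3.01-fold, 95% CI -2.12 to -1.06, limma adjusted p = 0.000665), where 1 of 5 members and 9.04% of all genes passed, and this call held whichever array was left out. That fit treats the arrays of the 3 stresses as independent, though same-numbered arrays shared deviations. Leaving out 1 array does not remove such a shared shift. Within the scanning day that held both lines, the differences were -2.02, -2.42 and -1.44.

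Kdr was not called with SB203580. It read higher with the inhibitor than without it in 9 of 10 pairs of wt arrays, and the mean difference over the 5 stresses was 0.17 (SE 0.20, 95% CI -0.24 to 0.59, limma adjusted p = 1). Over both members measured in all these groups 0 of 2 passed, with 0 at an unadjusted p under 0.05, against 0.0909% of all genes. The mean SB203580 difference and the mean p38α-/- difference of Kdr cover different sets of stresses, and they were not tested against each other. Of the endothelial markers 0 were called in p38α-/- MEFs, where 6 of 7 were tested untreated, 7 with anisomycin, 4 with TNFα and 7 with NaCl for 2 h. Over all genes 15.8% of tests passed in the p38α-/- groups. Pecam1 ranged from -0.46 to 0.22 over 6 measured p38α-/- arrays, Cdh5 from -0.21 to 0.27 over 8, Tie1 from -0.80 to 0.41 over 8, and Tek from -0.54 to -0.03 over 8. Emcn, Eng and Vwf lay between -0.41 and 0.37. Tek was below the pool on all 8 measured p38α-/- arrays, and its measured wt arrays ranged from -0.77 to 0.25. With NaCl for 2 h 2 of 5 tested fibroblast markers, Col1a1 (1.97 and 1.33) and Thy1 (0.48 and 0.60), were higher than the pool in p38α-/- MEFs. So was 1 of 4 tested macrophage markers, Cd68 (0.19 and 0.52), and 20.5% of all genes passed in that comparison. Of 6 smooth muscle and pericyte markers 0 were called in p38α-/- MEFs, with 1 tested untreated, 2 with anisomycin, 1 with TNFα and 2 with NaCl. The part of these markers in the Kdr result was not tested. Among 435 genes whose 15 group means varied with an SD of at least 0.5, those most like Kdr across the 15 groups were Gpr126 (r = 0.97), Arhgap6 (0.96) and A930025J12Rik (0.96), all sharing the same arrays.

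**Figure D3:**
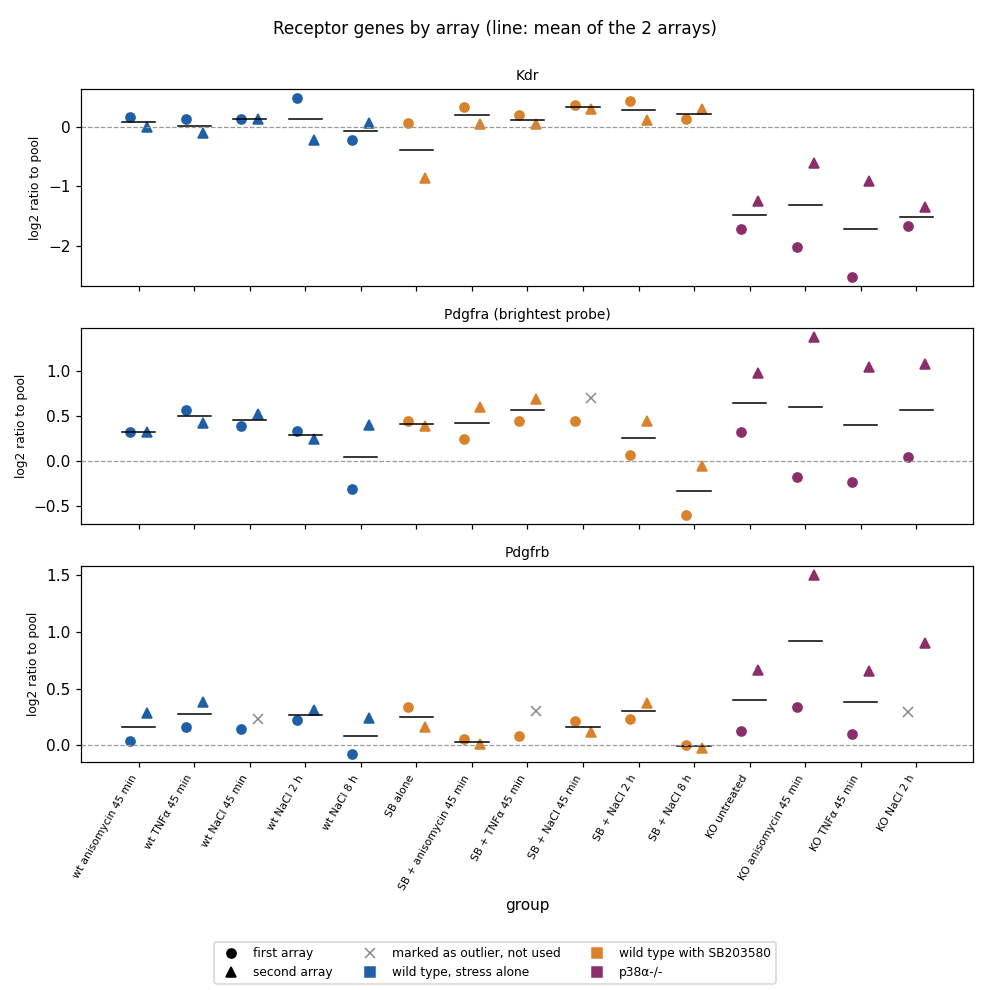
Log2 ratio to the pool (vertical axis) of Kdr, Pdgfra and Pdgfrb on each array by group (horizontal axis), with circles for first arrays, triangles for second arrays, crosses for spots marked as outliers and a line at the group mean. Kdr lies far below 0 in the 4 p38α-/- groups. The second p38α-/- arrays of the brightest Pdgfra probe and of Pdgfrb lie above the first.

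Pdgfa, a PDGF chain that acts through Pdgfra, moved little. Its brightest probe was marked as an outlier on 19 of 30 arrays, and the 10 wt arrays where it was measured lay between -0.29 and 0.00. On A_51_P370099, 19 of 20 measured wt arrays and 3 of 6 p38α-/- arrays were below 0. Anisomycin gave -0.27 and -0.38 in wt MEFs, and TNFα -0.16 and -0.41. These fell by 0.32 (SE 0.08, limma adjusted p = 0.0224) and 0.28 (limma adjusted p = 0.0399), and NaCl for 45 min with SB203580 fell by 0.28 (limma adjusted p = 0.0301). The anisomycin call was lost without either of its arrays (0.168 and 0.186), and so was that of NaCl with SB203580 (0.0981 and 0.309). The TNFα call was lost in 6 of 30 fits that left out 1 array, with -0.41 (0.0798) without its first array and -0.16 (0.495) without its second.

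Pdgfb, the chain that binds both PDGF receptors, had the steepest rise among the ligands. On its brighter probe, A_52_P618427, NaCl gave -0.02 and -0.04 at 45 min, 0.83 and -0.19 at 2 h, and 1.51 and 1.94 at 8 h in wt MEFs. Both 8 h arrays lay above all other wt arrays, with or without SB203580. Pdgfb rose at 8 h by 1.73 (SE 0.25, 3.31-fold, 95% CI 1.20 to 2.26, limma adjusted p = 8.97e-05), and the call held whichever array was left out. The step from 45 min to 8 h was 1.76 (SE 0.36, limma adjusted p = 0.00486) and from 2 h to 8 h 1.40 (limma adjusted p = 0.0195). Over the NaCl times 2 of 13 tests of members passed, against 5.75% over all genes. The first step was lost without the second 8 h array (1.54, limma adjusted p = 0.0533), the second without the second 2 h array (0.89, 0.238) or the second 8 h array (1.19, 0.151).

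With SB203580 the 8 h arrays of this Pdgfb probe read 0.82 and 1.46, below both arrays without it. The group was still higher than the pool by 1.14 (2.20-fold, limma adjusted p = 0.00358), a call lost without its second array (0.82, limma adjusted p = 0.168). The difference of -0.59 between the inhibitor and no inhibitor missed the threshold (SE 0.36, 95% CI -1.34 to 0.16, limma adjusted p = 1). The inhibitor array read lower in 7 of 10 pairs over all stresses. TNFα gave 1.19 and 0.56 in wt MEFs, a rise of 0.87 (1.83-fold, limma adjusted p = 0.0293) that was lost without either array (0.451 and 0.0875), and 0.72 and 0.34 in p38α-/- MEFs, which was not called. For the mean of its probes the TNFα value was 0.35 (limma adjusted p = 0.179) and the 8 h value 1.00 (limma adjusted p = 0.000203). The dimmer Pdgfb probe was -0.18 with TNFα in wt MEFs (limma adjusted p = 0.388), so the probes disagreed in sign there. The genes whose 15 group means were most like those of the brighter probe were Spp1 (r = 0.92), Foxf2 (0.91) and 5830469G19Rik (0.89), measured on the same arrays.

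The second Pdgfb probe, A_51_P175262, sat lower but followed the same order over time. It was below 0 on 18 of 22 wt and 8 of 8 p38α-/- arrays. At 8 h of NaCl it read 0.36 and 0.18, and 0.32 and 0.39 with SB203580, the 4 wt arrays above 0. Neither 8 h mean was called against the pool. These were 0.27 without the inhibitor (limma adjusted p = 0.148) and 0.36 with it (0.0539). From 45 min to 8 h it rose by 0.70 in wt MEFs (limma adjusted p = 0.023), a call lost without any 1 of the 4 arrays compared (0.112, 0.107, 0.166 and 0.0501). With the inhibitor the 8 h arrays were 0.99 higher than SB203580 alone (SE 0.18, limma adjusted p = 0.00197), a call lost without the first array of SB203580 alone (0.80, 0.0567). With normexp background correction these values were 0.39 and 0.53, still past the threshold. It fell with SB203580 alone, -0.83 and -0.44, by 0.63 (SE 0.13, limma adjusted p = 0.00168), but that call was lost without the first array (-0.44). It was also lower than the pool in wt MEFs given NaCl for 45 min without the inhibitor (-0.43, limma adjusted p = 0.0361). With SB203580 it was -0.54 with anisomycin (limma adjusted p = 0.0091) and -0.55 with NaCl for 45 min (0.00599). Each of these calls was lost when 1 of the group's own arrays was left out. In p38α-/- MEFs it fell untreated by 0.51 (limma adjusted p = 0.0107) and with NaCl for 2 h by 0.57 (0.00413), a call lost without the second array (-0.24, 0.355). The untreated call was lost without either array (0.186 and 0.0821). Normexp correction took the value with SB203580 alone to -0.33 and the p38α-/- NaCl value to -0.31. The brighter probe was not called in any of the groups where this probe fell. It was 0.18 with SB203580 alone, 0.11 in untreated p38α-/- MEFs and -0.04 in those given NaCl.

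**Figure D4:**
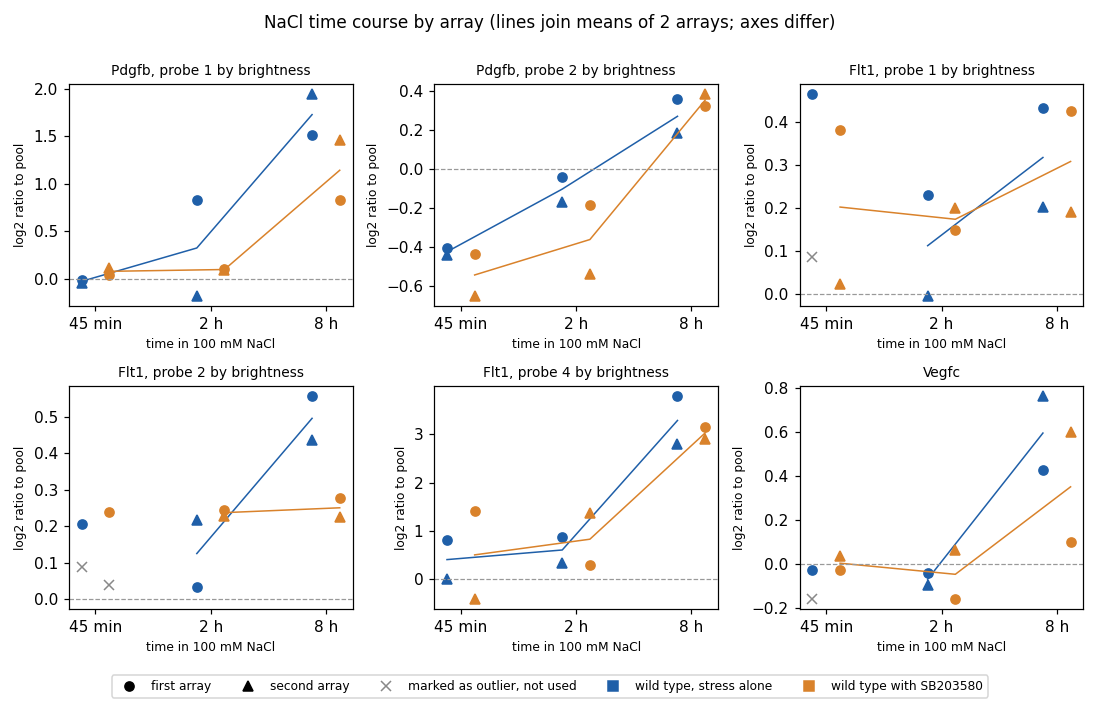
Log2 ratio to the pool (vertical axis) of 2 Pdgfb probes, 3 Flt1 probes and Vegfc after 45 min, 2 h and 8 h of 100 mM NaCl (horizontal axis) in wt MEFs with and without SB203580, by array with the mean. Pdgfb is highest at 8 h on both probes, and the inhibitor arrays of the brighter probe lie below the arrays without it at 8 h.

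By its brightest probe Pdgfra, the receptor for PDGF-A and PDGF-C chains, was above the pool on most arrays. No probe of the gene was called in any comparison. The dimmer probe, A_52_P264283, had group means on both sides of 0. In p38α-/- MEFs these ran from -0.11 with anisomycin to 0.28 with NaCl. On the brightest probe p38α-/- MEFs read 0.32 and 0.97 untreated, -0.18 and 1.38 with anisomycin, -0.24 and 1.04 with TNFα, and 0.05 and 1.08 with NaCl. The second array was higher in 4 of 4 pairs, by 0.65 to 1.56. Averaged over the 3 stresses the p38α-/- value was 0.15 higher than the wt value (SE 0.26, limma adjusted p = 0.75). Within the scanning day that held both lines the sign was the opposite on the brightest probe. There p38α-/- minus wt was -0.51 with anisomycin, -0.66 with TNFα and -0.20 with NaCl. On the dimmer probe these differences were -0.03, 0.07 and 0.02. With the replicate number as a block Pdgfra passed in 7 groups, among them untreated p38α-/- MEFs (0.00732). At 8 h of NaCl the brightest probe read -0.32 and 0.39 in wt MEFs and -0.60 and -0.06 with SB203580. Its lowest wt value was -0.60.

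Pdgfrb, the receptor bound by PDGF-B, read above 0 on 18 of 20 measured wt arrays and on 7 of 7 p38α-/- arrays. In p38α-/- MEFs it was 0.13 and 0.66 untreated and 0.33 and 1.50 with anisomycin. The anisomycin group was higher than the pool by 0.92 (SE 0.20, 1.89-fold, limma adjusted p = 0.00857), but without its second array it was 0.33 (limma adjusted p = 0.468). The second array was higher in 3 of 3 measured pairs, by 0.54 to 1.17. Against wt MEFs given anisomycin the difference was 0.76 (SE 0.29, limma adjusted p = 0.293, and 0.0186 with the replicate number as a block). With scanning day as a term that difference was 0.29 (limma adjusted p = 0.583) and the group's own value 0.57 (limma adjusted p = 0.0127). Within the scanning day that held both lines it was 0.05 with anisomycin and -0.29 with TNFα. The block also brought the untreated and TNFα groups of p38α-/- MEFs past the threshold against the pool (0.0245 and 0.0426).

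No member was called between stress with SB203580 and stress alone. By the brightest probe of each gene, of 28 tests of stress with the inhibitor against stress alone 0 passed in the limma fit, 0 had an unadjusted p under 0.05, and 0.052% of tests over all genes passed. Stress set against the same arm's unstressed cells gave 0 of 45 calls by brightest probes, with 3 at an unadjusted p under 0.05, against 1.64% over all genes, while the dimmer Pdgfb probe passed at 8 h of NaCl with SB203580. Whether the response of p38α-/- or inhibitor-treated MEFs differed from that of wt MEFs gave 0 of 43 calls by brightest probes, with 4 at an unadjusted p under 0.05, against 0.991%.

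The 9 other VEGF and PDGF ligands, receptors and co-receptors were followed from a list. At 2 h of NaCl 2 of 6 measured genes passed in wt MEFs, both higher, against 13.7% of all genes. Vegfb, a ligand of Flt1, read 0.62 and 0.92 (mean 0.77, limma adjusted p = 0.049), and Nrp2, a co-receptor of Vegfc, 0.74 and 0.42 (mean 0.58, limma adjusted p = 0.00898). Nrp2 stayed higher at 8 h, with 0.47 and 0.92, while Flt4, the receptor of Vegfc, fell to -0.35 and -0.47 (limma adjusted p = 0.0438). In p38α-/- MEFs given NaCl 3 of 5 measured genes passed, against 20.5% of all genes, namely Figf (0.60 and 0.94), Flt4 (0.51 and 0.53) and Nrp2 (0.60 and 0.55). The median of the 5 measured genes was 0.52 there, against 0 over all probes tested.

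Feedback inhibitors of these receptors and anti-angiogenic factors formed another list. At 2 h of NaCl 5 of 7 measured genes rose in wt MEFs and 1 fell, and 13.7% of all genes passed in that comparison. The median of the 7 measured genes was 0.85, against 0 over all probes. Spry2, which damps signalling by receptor tyrosine kinases, read 3.17 and 2.98 (limma adjusted p = 2.77e-09), and 2.58 and 2.56 in p38α-/- MEFs. Adamts1, a secreted protease that binds VEGF-A, read 3.65 and 3.24 in wt and 4.22 and 4.00 in p38α-/- MEFs. Spry4 fell, at -1.11 and -1.35 (limma adjusted p = 0.00057). Spry1 was higher than the pool in 4 of 4 p38α-/- groups, with means of 0.63, 1.47, 0.93 and 1.37, and differed from wt MEFs at 2 h of NaCl by 1.06 (limma adjusted p = 0.0188).

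The remaining pathway lists are given for 8 h of NaCl in wt MEFs, where 23.1% of all genes passed by their brightest probe. Of 10 measured receptor adaptors and signalling enzymes 5 rose and 2 fell, among them Crk, an adaptor protein, at 0.62 and 1.21, and Akt1, a kinase downstream of both receptor families, at -0.56 and -0.23. Of 4 measured genes of the hypoxia-inducible factor pathway 1 rose, Hif1a, which encodes a factor that activates Vegfa in low oxygen, at 1.35 and 2.19 (limma adjusted p = 0.000809). Of 9 other angiogenic ligands and receptors 1 rose, the ligand gene Kitl, at 0.85 and 1.31, and 1 fell, Fgf2, at -0.82 and -0.65. Of 6 genes for proteins that bind AU-rich transcripts 2 rose, including Zfp36l1, which promotes their decay, at 0.67 and 1.23.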

How the data were processed

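Log2 ratios of 2-colour whole genome arrays were analysed for 15 groups of 2 arrays. The deposited log10 ratio (Cy5 sample over Cy3 pool, no dye swap) and intensity columns were made by the authors in Agilent's scanner software Feature Extraction (9.1 by the submitters' processing notes, 8.1.1.1 by the header lines of the arrays), with spatial detrending, linear and LOWESS dye normalization, and substitute values for dim signal. The deposited log2 table of the authors' normalized ratios was used as an alternative. Its direction and log2 scale were set against the scanner ratios of each array, and how it was centred is not given in the sources used here.

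Ratios were converted to log2, spots marked as outliers were left out, and 15 group means were fitted by limma (version 3.58.1, R 4.3.3) with Benjamini-Hochberg adjustment over all probes measured on both arrays of every group compared, at 0.05. The fit had 15 residual degrees of freedom, and 2 arrays a group limit its precision. The pool stands for the control, so its own spread is left out of tests against 0. Each gene was counted by its brightest probe in Cy3. All 8 members were named whatever their values, with Mapk14, at most 4 called genes per list, and the 3 genes most alike. Members, lists and tests were chosen with earlier results of these data known. Of 82 list genes 81 were on the array. The mean differences over 5 and over 3 stresses were added after seeing the data. The procedure was tested on simulated data.

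Replicate numbers come from the sample titles. Deviations of same-numbered arrays correlated above 0.1 in 55 of 55 pairs of wt groups and 6 of 6 pairs of p38α-/- groups, but in 5 of 44 pairs across lines. Sequences are from RefSeq tables of GRCm38.p6.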

Additional observations from a re-analysis of the deposited data

How the results depend on the processing

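Of 1609 recomputed values of the 42 called member differences, 1473 kept their direction and stayed past the threshold, 136 kept the direction but missed it, and 0 reversed. Leaving out single arrays accounted for most losses, since 5 of the 42 calls held whichever array was left out. Fitting each genotype's arrays alone kept 29 of 42 and ended the 4 Kdr calls in p38α-/- MEFs (limma adjusted p = 0.122, 0.175, 0.142 and 0.0977). Normexp background correction kept 42 of 42. With 2 arrays a group and the pool as sole control, each call rests on few values.

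Counts of tests passed are for limma fits. In wt stress groups 6 became 11 with scanning day as a term and 1 with a further 2-fold rule, and leaving out an array gave 3 to 7. In SB203580 groups 4 became 7 with outlier spots kept, 7 with the replicate block, 9 with scanning day and 1 with the 2-fold rule (2 to 5 without an array). In p38α-/- groups 6 became 13 with the replicate block and 0 with that genotype's arrays alone (4 to 9 without an array). For p38α-/- against wt stress 0 became 4 with the replicate block and 3 with scanning day (0 to 2 without an array). For NaCl times 2 became 4 with the mean of a gene's probes (0 to 2). For stress inside an arm 0 became 1 with the replicate block, scanning day or the mean of probes (0 to 1). For differences of response 0 became 2 in the authors' table and 1 with outlier spots kept (0 to 0). Stress with against without SB203580 gave 0 throughout, and the mean differences gave 0 (SB203580) and 1 (p38α-/-) throughout. The cause of these shifts was not tested. The replicate block lost none of the 42 calls. Besides those given with the results, it added Flt1 with anisomycin in the presence of SB203580 (0.0316) and in p38α-/- MEFs (0.0456), and calls on dimmer probes.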
